A study of Homo sapiens with 15 samples.

Results

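The NRF2 antioxidant program was followed through 38 genes listed by name, of the 61544 genes in the count table of the series. They were NFE2L2, which encodes the transcription factor (TF) NRF2, its regulators KEAP1, BACH1 and MAFG, and 34 established targets. These genes were chosen with earlier results of these data known. Their shares beside those of all genes are therefore a description and not a test. NRF2 is the main activator of the genes that protect cells from oxidants and electrophiles. KEAP1 holds NRF2 and directs it to degradation, and NRF2 that escapes pairs with a small MAF protein such as MAFG and binds antioxidant response elements (AREs), which BACH1 occupies as a repressor. Activation of this pathway is frequent in lung squamous cell carcinoma (LUSC), and because much of its control acts on the NRF2 protein, NFE2L2 RNA alone does not measure its activity.

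RNA-seq was performed on the established human LUSC cell line HCC95 after transfection with a negative control siRNA (siNC1) or with siKLF5b, siTP63b, siSOX2b or siGRHL2a, each of which targets the squamous TF in its name. Each of the 5 groups had 3 libraries, with 1 siRNA for each TF and no other cell line. The labels do not say that the 3 libraries of a group came from separate cultures, so the p-values measure the spread between libraries, which may be technical. All 15 libraries were fitted together with a shared estimate of that spread. Tests of siKLF5b against siNC1 therefore also draw on the spread in the other 3 knockdowns. Counts summed to 18947986 to 24845273 per library in siNC1, 15655495 to 24524882 in siKLF5b, 27713754 to 30366136 in siTP63b, 22255856 to 32520477 in siSOX2b and 32138582 to 34229063 in siGRHL2a.

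The libraries fell into 2 sets by the form of their column names, and the sets also differed in a property of the counts. Among genes with 20 to 500 counts, 49.7% to 50.7% of the values were even numbers in the 6 libraries of siNC1 and siKLF5b, against 66.1% to 69.0% in the 9 libraries of the other 3 knockdowns. The study's methods speak of reads as what was counted, with no word on how the mates of a pair were treated, so the printed counts and totals of these 9 libraries may exceed the number of fragments. Set and knockdown cannot be told apart between these sets. Therefore siKLF5b was compared with siNC1, and siTP63b, siSOX2b and siGRHL2a were compared with each other, without a control library of their own set. In bulk RNA, fewer cells with a transcript and less of it per cell cannot be told apart.

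Levels are given as CPM, the counts of a gene relative to the library size with TMM factors, per library in the order of the replicate numbers. A gene passed when its adjusted p was below 0.05 in the quasi-likelihood test of edgeR, adjusted by Benjamini-Hochberg over the 25108 genes tested, and only such genes are said to have changed. A gene that also had an absolute log2 fold change (log2FC) above 0.75 is called a differentially expressed gene (DEG). All 38 members were tested.

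The targeted TFs were examined first. KLF5 stood at 123, 109 and 107 CPM in siNC1 and at 71.8, 71.8 and 73.8 CPM in siKLF5b. It fell by 0.64 on the log2 scale (adjusted p = 5.29e-10 in edgeR's test), short of the DEG threshold. TP63 was at 350, 351 and 389 CPM in siTP63b, below all libraries of siSOX2b (647 to 719 CPM) and siGRHL2a (807 to 862 CPM). SOX2 was at 9.72, 7.09 and 10.1 CPM in siSOX2b, below siTP63b (27.1 to 31.5 CPM) and siGRHL2a (18.4 to 21.2 CPM). GRHL2 differed least. It was at 90.8, 91.9 and 91.1 CPM in siGRHL2a, against 96.0 to 105 CPM in siSOX2b and 115 to 120 CPM in siTP63b. The means of siGRHL2a and siSOX2b were 91.3 and 100.2 CPM, a small difference. Without a control library in this set, the fall of TP63, SOX2 and GRHL2 RNA from control was not measured here. The study examined the protein of each targeted TF by Western blot.

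Squamous markers were expressed in every group. All 10 examined were above 3 counts per library, a low floor that some markers of other cells also passed. KRT5, a basal keratin, was the most abundant with a mean of 8633 CPM in siNC1. The summed level of the 10 markers was 11715, 10425 and 10205 CPM in siNC1 and 6246, 7243 and 7271 CPM in siKLF5b. It was 6835 to 7954 CPM in siTP63b, 9778 to 10756 CPM in siSOX2b and 12264 to 12645 CPM in siGRHL2a. KRT5 made up most of these sums. By gene, 7 of the 10 were lower in siKLF5b than in siNC1 (12.9% of all genes tested), and SOX2 and DSG3 were higher (log2FC = 0.54 and 0.21, 10.3% of all genes). The list holds TP63 and SOX2, the targets of siTP63b and siSOX2b, so the counts below include a gene that was itself knocked down. In siTP63b, 6 were lower than in siSOX2b (15.4% of all genes) and 8 lower than in siGRHL2a (13.4%), TP63 among them, and SOX2 was higher in both pairs (log2FC = 1.73 and 0.55). Between siGRHL2a and siSOX2b, 7 were higher in siGRHL2a (12.7%), SOX2 among them, and SERPINB5 was lower (log2FC = -0.18, 11.8%). The part of these markers in the results on the NRF2 program was not tested. S100A2, KRT17 and SERPINB5 each lost a call in some of these counts when 1 library was left out. With all libraries kept, KRT17 in siGRHL2a against siSOX2b was also lost with relative log expression (RLE) size factors (adjusted p = 0.0651 in edgeR's test) and with DESeq2 (0.238), and S100A2 in siTP63b against siGRHL2a with DESeq2 (0.0637). Markers of other cells were low in level. The 4 fibroblast markers summed to at most 9.29 CPM, with COL1A1 the highest and DCN at 0 in all groups except siKLF5b. The 4 leukocyte markers summed to 21.5 to 39.8 CPM, nearly all of it CD68, a lysosomal protein gene. The endothelial markers summed to at most 15 CPM with VWF the highest, and those of glandular lung epithelium to at most 11.2 CPM with NKX2-1 the highest. Some of these genes passed nonetheless. CD68 (log2FC = -0.62, adjusted p = 2.71e-06) and PDGFRB (-0.85, adjusted p = 0.00794) were lower in siKLF5b than in siNC1. PDGFRB (-1.20 and -1.04) and NKX2-1 (-0.61 and -0.85) were lower in siTP63b than in siSOX2b and siGRHL2a, VWF was higher in siTP63b and siGRHL2a than in siSOX2b (0.73 and 0.86), and CD68 was lower in siTP63b than in siGRHL2a (-0.25, lost without siTP63b replicate 1 or 2 or siGRHL2a replicate 3). PTPRC was lower in siGRHL2a than in siSOX2b (-1.50), a call lost with DESeq2 and without siSOX2b replicate 1 or 2 or siGRHL2a replicate 3. The part of these genes in the results was not tested.

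In control cells the members spanned a wide range of levels. The 38 members took 1.77% to 1.83% of all counts in siNC1. Per kilobase of merged exons, the thioredoxin gene TXN had the highest level (576 CPM per kb), followed by PRDX1, a peroxiredoxin that removes hydrogen peroxide (470), and FTH1 and FTL, the heavy and light chains of the iron store ferritin (421 and 350). TXNRD1, the thioredoxin reductase that keeps TXN reduced, followed with 323 CPM per kb. NFE2L2 itself ranked 21st of 38 by this measure with 71.1 CPM per kb, and HMOX1, the heme oxygenase, was last with 0.432. Introns were counted as well, so levels per kilobase of exon are approximate.

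To see where the pathway's DNA element lies in these genes, promoter windows from 250 bases before to 50 bases after the start were read. They came from RefSeq (GRCh38.p14), and the set of windows used here held 28 of the 38 members. Members without a window in this set were not searched. The core letters of the ARE, TGACNNNGC, were searched on both strands. A match was found for 9 of the 24 targets with a window (37.5%) and for 16.1% of all 27305 genes with a window. The sites below are those of GCLM, a core target, and of 4 members that differed in opposite directions after KLF5 knockdown, TXNRD1 and CYP4F11 (lower) and ME1 and PIR (higher). Each is printed on the strand of its gene with the matching letters, or their reverse complement, in capitals.
GCLM: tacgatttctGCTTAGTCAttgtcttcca
TXNRD1 site A: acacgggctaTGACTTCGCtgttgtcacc
TXNRD1 site B: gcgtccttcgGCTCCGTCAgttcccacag
TXNRD1 site C: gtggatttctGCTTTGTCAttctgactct
CYP4F11: ctgtgcccatGCTGTGTCAccctgagctg
ME1 site A: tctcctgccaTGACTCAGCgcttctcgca
ME1 site B: gctgcagtcaGCACCGTCAccccagcagc
PIR: gccgcgaagcGCTGAGTCAcggtgaggct
The GCLM site lies at chr1:93909446-93909474 on the minus strand, 34 bases before the start. The TXNRD1 sites lie at chr12:104215670-104215698, chr12:104215761-104215789 and chr12:104286920-104286948 on the plus strand, the last of them at a start further into the gene. The CYP4F11 site is at chr19:15935005-15935033 on the minus strand. The ME1 sites are at chr6:83431170-83431198 and chr6:83431022-83431050 on the minus strand, the first 137 bases before and the second 11 bases after the start. The PIR site is at chrX:15493289-15493317 on the minus strand, 26 bases after the start. Site A of ME1 and the PIR site also hold the letters TGANTCA, which AP-1 factors bind. A match of letters is a description of the window and not evidence of binding, and a target without a match can hold its element elsewhere.

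KLF5 knockdown was set against the control siRNA to see which members changed with loss of KLF5. In siKLF5b, 18 of the 38 members were lower and 3 were higher than in siNC1, and 17 did not pass. Of all genes tested, 12.9% were lower and 10.3% higher, and of the 11821 genes with a mean of at least 10 CPM, which include 35 members, 23.1% were lower and 14.5% higher. The median log2FC of the members was -0.15, and that of all genes was -0.01. Without overlap between the groups, 22 members were lower and 5 higher, where 22.5% and 20% of all genes did so. The decreases were small. TXNRD1 and CYP4F11 alone were DEGs (1.37% of all genes were lower DEGs), and no member was a higher DEG (1.89%).

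**Figure D1:**
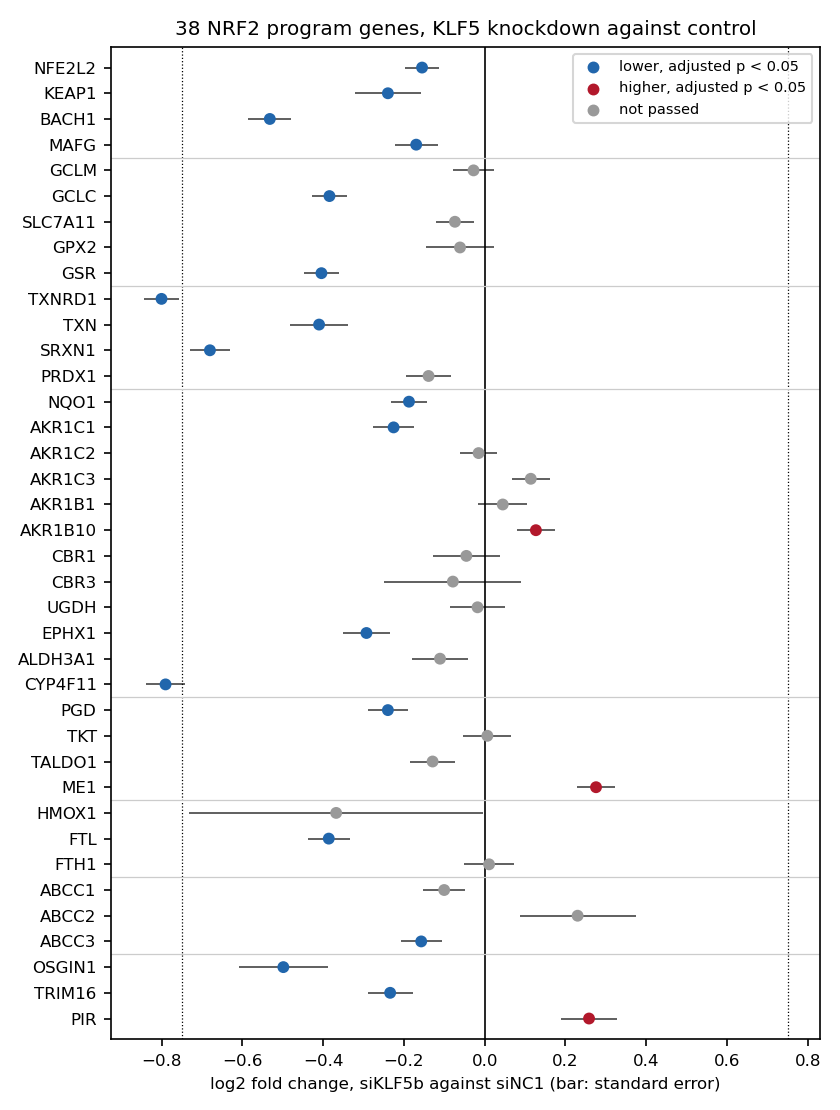
Log2 fold change of the 38 members in siKLF5b against siNC1 (x axis), with the standard error as a bar and 1 gene per row, grouped by role. Blue and red points passed at an adjusted p below 0.05, grey points did not, and the dotted lines mark 0.75 in either direction. The 18 lower members include all 4 regulators at the top, and TXNRD1 and CYP4F11 lie beyond the dotted line.

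All 4 regulators were lower in siKLF5b (23.1% of genes with at least 10 CPM). NFE2L2 (chr2:177227595-177392697 in hg38, minus strand) was at 1042, 1058 and 1094 CPM in siNC1 and at 972, 965 and 931 CPM in siKLF5b. The groups did not overlap, and the log2FC was -0.15 ± 0.04 (SE, adjusted p = 0.00774). With 3 against 3 libraries, an exact two-sided permutation test of any gene without overlap gives p = 0.1, the smallest possible, and so it did for NFE2L2 in all 4 comparisons without adding to that observation. BACH1 showed the largest decrease of the regulators, from 66.8, 64.2 and 68.1 CPM to 45.4, 45.6 and 46.9 CPM (log2FC = -0.53 ± 0.05, adjusted p = 3.95e-09). As a repressor of AREs, BACH1 acts against NRF2. KEAP1, the inhibitor, was at 49.6, 45.4 and 39.7 CPM in siNC1 and at 39.1, 37.8 and 37.0 CPM in siKLF5b, where all 3 libraries lay just below the lowest control library (log2FC = -0.24, adjusted p = 0.0292). MAFG, the NRF2 partner, was at 92.7, 89.0 and 86.5 CPM and at 77.2, 80.2 and 81.1 CPM (log2FC = -0.17, adjusted p = 0.0187). The calls of KEAP1 and MAFG were not stable. That of KEAP1 was lost without siKLF5b replicate 2 or 3 or siNC1 replicate 1 or 2 (adjusted p = 0.0804, 0.0857, 0.218 and 0.0738 in edgeR's test), and that of MAFG without siKLF5b replicate 1 or siNC1 replicate 1 (0.0819 and 0.0886) and with no filter on low counts (0.0529). The long noncoding gene ENSG00000213963, which overlaps NFE2L2 on the same strand, had 24.4% as many counts as NFE2L2, and SIRT7 had 90.0% as many as MAFG.

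The thioredoxin arm had the lowest median log2FC of the roles (-0.55), and 3 of its 4 genes were lower in siKLF5b (23.1% of genes with at least 10 CPM). It uses NADPH to reduce oxidised proteins and peroxiredoxins. TXNRD1 (chr12:104215779-104350307) was at 2172, 2200 and 2135 CPM in siNC1 and at 1228, 1240 and 1269 CPM in siKLF5b. Every siKLF5b library was far below every control library, and TXNRD1 fell by 0.80 on the log2 scale (SE 0.04, adjusted p = 1.47e-14). SRXN1, a sulfiredoxin that repairs overoxidised peroxiredoxins, stood at 351, 364 and 347 CPM and at 221, 223 and 220 CPM (log2FC = -0.68 ± 0.05, adjusted p = 8.24e-12). A readthrough gene that shares its strand, ENSG00000270299, had 100.9% as many counts, so SRXN1 cannot be separated from it. TXN was at 566, 612 and 568 CPM and at 443, 415 and 456 CPM, again without overlap (log2FC = -0.41 ± 0.07, adjusted p = 5.43e-05). PRDX1 did not pass (log2FC = -0.14, adjusted p = 0.0698), although its siKLF5b libraries (705 to 729 CPM) lay below the control libraries (785 to 803 CPM).

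Of the 5 genes of the glutathione arm, 2 were lower in siKLF5b and none was higher, and all 5 had a negative log2FC. Of genes with at least 10 CPM, 23.1% were lower and 14.5% higher. GCLC, the catalytic subunit of the enzyme that limits glutathione synthesis, was at 1127, 1108 and 1121 CPM in siNC1 and at 863, 875 and 833 CPM in siKLF5b (log2FC = -0.38 ± 0.04, adjusted p = 4.23e-08). GCLM, the modifier subunit of the same enzyme, was at 696, 671 and 680 CPM and at 688, 662 and 658 CPM, with overlapping groups (log2FC = -0.03, adjusted p = 0.762). GSR, which regenerates reduced glutathione, was at 290, 291 and 297 CPM and at 218, 218 and 227 CPM (log2FC = -0.40 ± 0.04, adjusted p = 1.88e-08). The catalytic subunit and the reductase therefore fell, whereas the modifier subunit did not pass. The differences between these genes were not tested. SLC7A11, the cystine importer, was at 818, 864 and 886 CPM and at 820, 824 and 797 CPM (log2FC = -0.07, adjusted p = 0.286). GPX2, a glutathione peroxidase, overlapped between the groups as well (log2FC = -0.06, adjusted p = 0.669). CHURC1-FNTB on the other strand had 264.6% as many counts as GPX2.

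Of the 12 detoxification genes, most of them enzymes for quinones and carbonyls, 4 were lower (33.3%, against 23.1% of genes with at least 10 CPM) and 1 was higher (8.33%, against 14.5%). CYP4F11, a fatty acid hydroxylase, was at 829, 785 and 726 CPM in siNC1 and at 462, 443 and 449 CPM in siKLF5b (log2FC = -0.79 ± 0.05, adjusted p = 1.14e-13). All siKLF5b libraries lay well below the controls, although the log2FC was -0.75 without siNC1 replicate 1 and then just missed the DEG threshold. NQO1, the quinone reductase that serves as the classical marker of NRF2 activity, was at 330, 334 and 336 CPM and at 297, 290 and 290 CPM (log2FC = -0.19 ± 0.04, adjusted p = 0.00184). The difference in NQO1 was small but without overlap. The other lower genes were EPHX1, an epoxide hydrolase (log2FC = -0.29), and AKR1C1, an aldo-keto reductase (log2FC = -0.23). AKR1B10, another aldo-keto reductase, was at 565, 524 and 517 CPM and at 598, 584 and 573 CPM (log2FC = 0.13, adjusted p = 0.0468). This call was lost without any of the 3 siKLF5b libraries (replicates 1 to 3, adjusted p = 0.212, 0.121 and 0.0735) and without siNC1 replicate 2 or 3 (0.195 and 0.223). It was also lost with RLE size factors (adjusted p = 0.0511 in edgeR's test) and with no filter on low counts (0.0664). AKR1C1, AKR1C2 and AKR1C3 are close paralogs, AKR1C1 and AKR1C2 the closest, and reads that match more than 1 of them were not counted, so their levels are uncertain. The log2FC of the 7 members that did not pass ran from -0.11 (ALDH3A1) to 0.11 (AKR1C3).

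Of the 4 NADPH genes, 1 was lower and 1 higher, and of the 3 other targets 2 were lower and 1 higher, where 23.1% of genes with at least 10 CPM were lower and 14.5% higher. The 3 genes of heme and iron and the 3 exporters each held 1 lower gene and no higher one. OSGIN1, an oxidative stress-induced growth inhibitor, was at 27.4, 23.9 and 22.3 CPM in siNC1 and at 16.0, 17.7 and 18.6 CPM in siKLF5b (log2FC = -0.50 ± 0.11, adjusted p = 8.65e-04). FTL was at 318, 306 and 290 CPM and at 238, 222 and 240 CPM (log2FC = -0.39 ± 0.05, adjusted p = 1.11e-06). By contrast, the other ferritin chain, FTH1, was at 832 to 854 CPM and at 826 to 865 CPM (log2FC = 0.01, adjusted p = 0.934). The chains of ferritin thus differed in whether they passed, although the difference between them was not tested. PGD of the pentose phosphate pathway (log2FC = -0.24), the exporter ABCC3 (-0.16) and TRIM16 (-0.23) were lower. ENSG00000251537, on the strand of TRIM16, had 89.3% as many counts. ME1, the malic enzyme that supplies NADPH, rose from 324, 328 and 330 CPM to 400, 394 and 394 CPM (log2FC = 0.28 ± 0.05, adjusted p = 3.33e-05). PIR, an iron-containing nuclear protein, was at 43.4, 42.1 and 47.1 CPM and at 53.7, 53.7 and 51.3 CPM (log2FC = 0.26, adjusted p = 0.00639, and 0.0511 without siNC1 replicate 2). TKT, TALDO1, ABCC1, ABCC2 and HMOX1 did not pass, and HMOX1 was between 0.482 and 1.26 CPM in all 15 libraries.

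Among the TP63, SOX2 and GRHL2 knockdowns, siTP63b had the highest mean of the 3 groups for 27 members (71.1%, against 34.7% of all genes tested), siGRHL2a for 8 (21.1%, against 32.8%) and siSOX2b for 3 (7.89%, against 32.5%). The lowest mean was in siSOX2b for 23 members (60.5%, against 34.9%), in siGRHL2a for 10 (26.3%, against 29.2%) and in siTP63b for 5 (13.2%, against 35.9%). These counts take in 6 members that passed in no pair and 10 that passed in 1 pair. By calls, 12 members were higher in siTP63b than in both other knockdowns (7.71% of all genes) and NFE2L2 was lower than in both (7.42%). In siSOX2b, 11 were lower than in both others (6.81%) and TXNRD1 was higher (5.46%). In siGRHL2a, TXNRD1 and SRXN1 were lower than in both others (4.76%), and NFE2L2, CBR1 and PIR were higher (4.1%). The summed level of the members was 14410, 14501 and 14159 CPM in siTP63b, 11866, 11585 and 11658 CPM in siSOX2b, and 12621, 12235 and 12276 CPM in siGRHL2a. The sums of the 3 groups did not overlap, and siTP63b was the highest. In the other set of libraries the sum was 19300, 18757 and 18404 CPM in siNC1 and 16294, 16088 and 16020 CPM in siKLF5b.

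**Figure D2:**
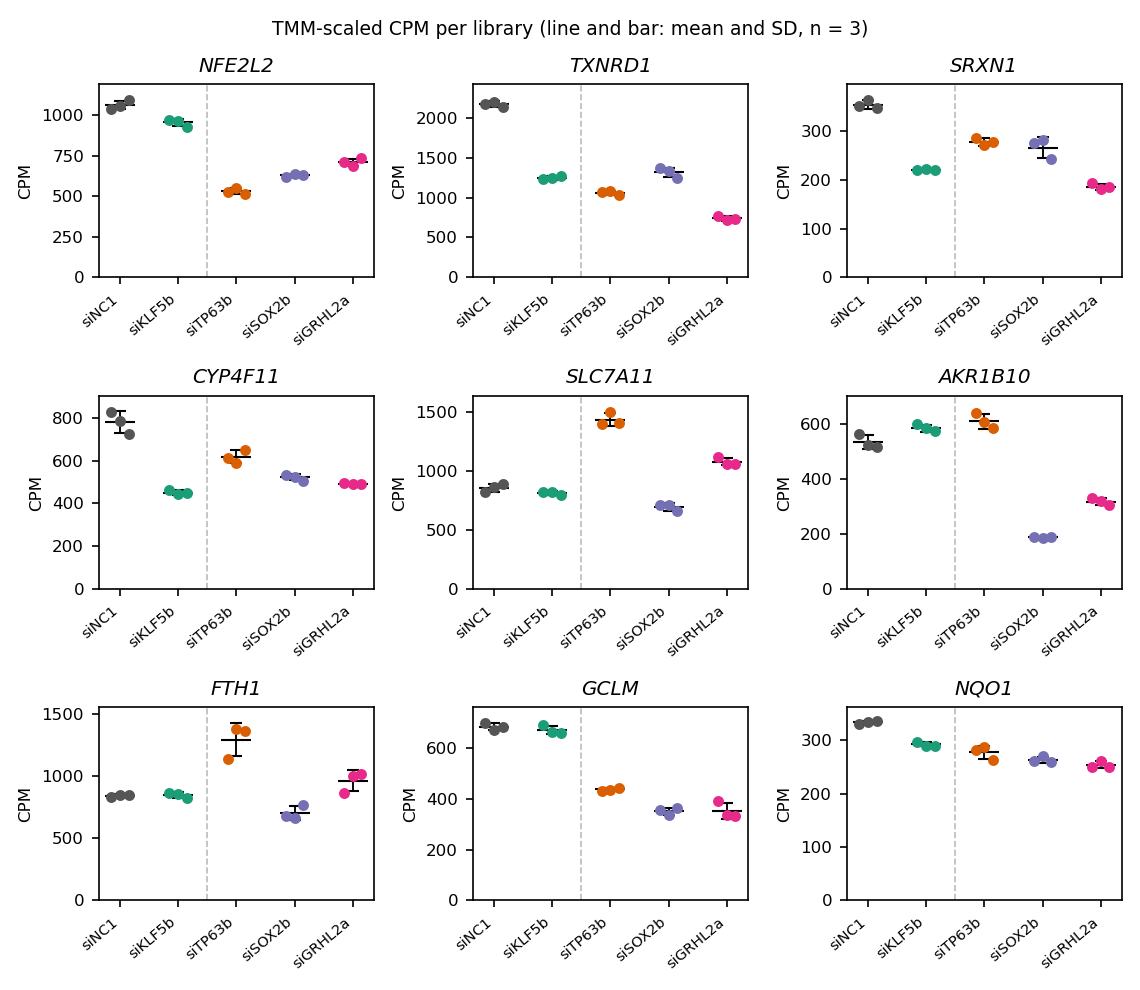
Level of 9 members in CPM (y axis, from 0) in the 15 libraries by siRNA (x axis), with the mean and SD of 3 libraries as a line and bars. The dashed line parts the libraries by the form of their column names. NFE2L2 was lowest in siTP63b, where SLC7A11, AKR1B10 and FTH1 were highest of the 3 knockdowns on that side, and TXNRD1 and SRXN1 were lowest in siGRHL2a.

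Each pair of these knockdowns was compared, and every pair shares its libraries with the others, so the 3 comparisons are not independent. In siTP63b against siSOX2b, 22 members were higher and 2 lower (16.4% and 15.4% of all genes, 23.7% and 23.0% of genes with a mean of at least 10 CPM), with a median log2FC of 0.24. In siTP63b against siGRHL2a, 18 were higher and 4 lower (13.6% and 13.4% of all genes, 21.8% and 18.1% of those with at least 10 CPM), with a median of 0.13. In siGRHL2a against siSOX2b, 14 were higher and 2 lower (12.7% and 11.8% of all genes, 18.0% and 20.4% of those with at least 10 CPM), with a median of 0.10 (0.06 without siGRHL2a replicate 1). The median of all genes was within 0.02 of 0 in each. Groups without overlap gave 21 higher and 3 lower members in siTP63b against siSOX2b (19.6% and 18.8% of all genes), 19 and 4 in siTP63b against siGRHL2a (17.8% and 17.8%), and 15 and 4 in siGRHL2a against siSOX2b (18.6% and 16.6%).

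**Figure D3:**
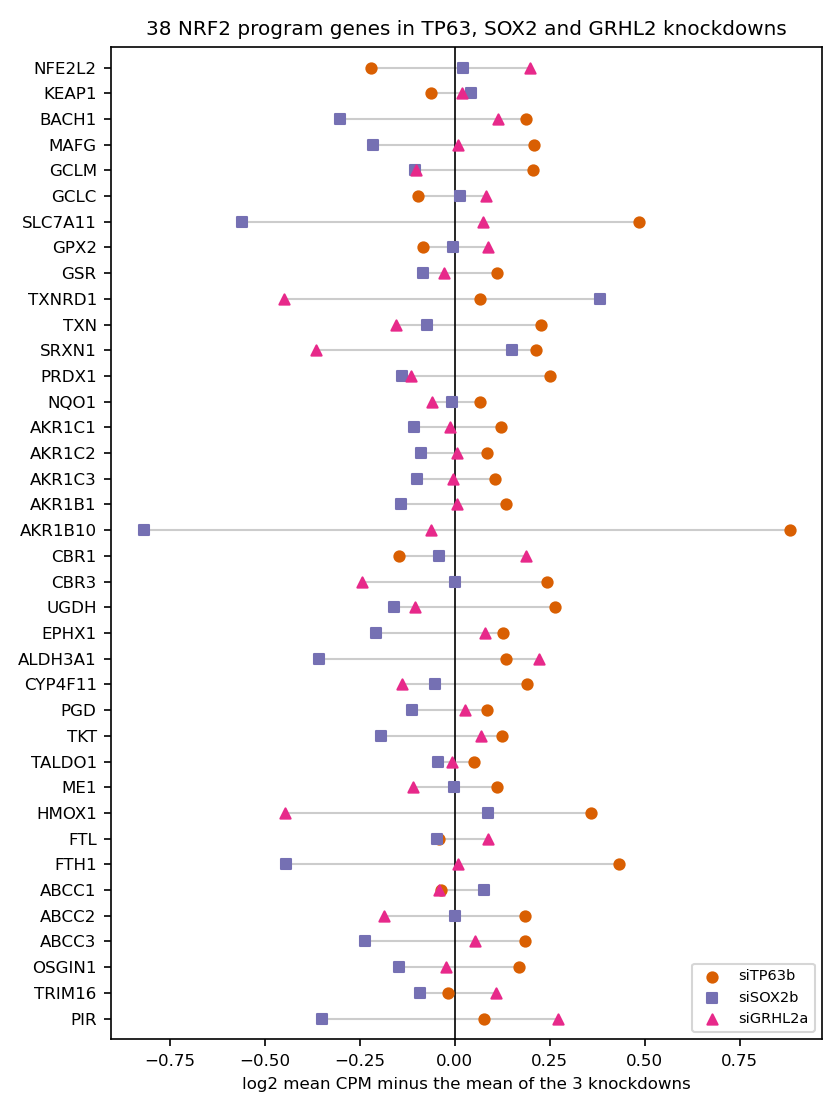
Mean log2 CPM of each of the 38 members in siTP63b, siSOX2b and siGRHL2a (points), relative to the mean of these 3 groups (x axis, 0), with 1 gene per row. The siTP63b point is the rightmost for 27 members (71.1%, against 34.7% of all genes tested), and NFE2L2 in the first row is reversed, with siTP63b the leftmost.

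The 4 regulators did not share an order across these knockdowns. NFE2L2 was at 528, 553 and 518 CPM in siTP63b, 622, 636 and 632 CPM in siSOX2b and 710, 690 and 734 CPM in siGRHL2a. No 2 of these groups overlapped, with siTP63b at the bottom and siGRHL2a at the top. The log2FC was -0.24 ± 0.04 for siTP63b against siSOX2b (adjusted p = 5.09e-05), -0.42 ± 0.04 for siTP63b against siGRHL2a (adjusted p = 5.14e-09) and 0.18 ± 0.04 for siGRHL2a against siSOX2b (adjusted p = 0.00277). BACH1 was at 94.8, 99.0 and 94.9 CPM in siTP63b and at 93.6, 88.6 and 92.6 CPM in siGRHL2a, above the 70.1, 68.1 and 67.5 CPM of siSOX2b (log2FC = 0.49 and 0.42, adjusted p = 2.28e-09 and 1.07e-07). MAFG was ordered siTP63b (101, 99.1 and 106 CPM), siGRHL2a (87.3, 85.0 and 93.9 CPM) and siSOX2b (73.2, 75.2 and 79.4 CPM), and it passed in all 3 pairs (largest log2FC 0.42, adjusted p = 9.21e-08). KEAP1 overlapped between all groups, with 48.8, 40.2 and 49.9 CPM in siTP63b, 53.6, 46.2 and 49.6 CPM in siSOX2b and 47.5, 51.0 and 48.6 CPM in siGRHL2a, and passed in no pair (adjusted p = 0.315 to 0.865).

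SLC7A11 and AKR1B10 varied most in this set, together with FTH1. SLC7A11 was at 1400, 1499 and 1402 CPM in siTP63b, with siGRHL2a at 1114, 1059 and 1061 CPM and siSOX2b at 714, 714 and 657 CPM. The 3 groups formed separate steps, with a log2FC of 1.04 ± 0.05 between siTP63b and siSOX2b (adjusted p = 2.88e-17), 0.41 between siTP63b and siGRHL2a (2.75e-08) and 0.63 between siGRHL2a and siSOX2b (9.62e-12). Its antisense gene SLC7A11-AS1 had 59.7% as many counts, and without known strand their reads cannot be told apart. AKR1B10 was at 639, 607 and 585 CPM in siTP63b, with siGRHL2a at 329, 318 and 304 CPM and siSOX2b at 189, 185 and 189 CPM. No annotated gene overlaps AKR1B10, and it was the only member that was a DEG in each pair, with a log2FC of 1.70 ± 0.05 (siTP63b against siSOX2b, adjusted p = 7.82e-22), 0.95 (siTP63b against siGRHL2a, 4.33e-16) and 0.76 (siGRHL2a against siSOX2b, 2.66e-13). The last of these was below 0.75 without siGRHL2a replicate 1 or any of the 3 siSOX2b libraries, where the lowest value was 0.72.

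FTH1 was at 1140, 1381 and 1363 CPM in siTP63b, with siGRHL2a at 869, 1004 and 1023 CPM and siSOX2b at 680, 669 and 766 CPM. These levels again stepped down from siTP63b to siSOX2b without overlap (log2FC = 0.88 ± 0.06, adjusted p = 1.27e-12 for that pair). The gene BEST1 on the other strand had 55.6% as many counts. In siTP63b against siSOX2b the higher DEGs were AKR1B10, SLC7A11 and FTH1 (3.88% of all genes were higher DEGs), and in siTP63b against siGRHL2a AKR1B10 alone (2.18%), while no member was a lower DEG in either (2.82% and 3.21%). In siGRHL2a against siSOX2b, AKR1B10 was the higher DEG (2.27%) and TXNRD1 the lower (1.05%).

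Within the glutathione arm, GCLM was at 430, 435 and 442 CPM in siTP63b, above 355, 336 and 362 CPM in siSOX2b and 389, 334 and 332 CPM in siGRHL2a. It was higher in siTP63b than in both (log2FC = 0.31 and 0.31, adjusted p = 1.19e-05 and 1.78e-05). GCLC took the other order, with 670, 693 and 674 CPM in siTP63b, 758, 740 and 700 CPM in siSOX2b and 770, 788 and 748 CPM in siGRHL2a. It was lower in siTP63b than in siGRHL2a (log2FC = -0.18, adjusted p = 0.00187) and just missed the threshold against siSOX2b (-0.11, adjusted p = 0.0503). That difference passed without siSOX2b replicate 3 or siTP63b replicate 2 (adjusted p = 0.0108 and 0.0489 in edgeR's test), with RLE size factors (0.0438), with at least 10 counts in every library (0.0384), with a replicate block (0.0497) and with DESeq2 (0.00732). The subunits of 1 enzyme, GCLM and GCLC, thus stood in opposite order to each other across siTP63b and siGRHL2a. GSR was higher in siTP63b than in the other knockdowns (log2FC = 0.19 and 0.14), although the call against siGRHL2a was lost when only the 6 libraries compared were fitted (0.13, adjusted p = 0.065). GPX2 passed in no pair.

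In the thioredoxin arm, TXNRD1 and SRXN1 were lowest in siGRHL2a, whereas TXN and PRDX1 were highest in siTP63b. TXNRD1 was at 768, 717 and 732 CPM in siGRHL2a, 1064, 1077 and 1028 CPM in siTP63b and 1366, 1331 and 1250 CPM in siSOX2b. No groups overlapped, and TXNRD1 was the only member with siSOX2b above siTP63b above siGRHL2a in every library (log2FC = -0.83 ± 0.04 for siGRHL2a against siSOX2b, adjusted p = 6.70e-15, and 0.51 ± 0.04 for siTP63b against siGRHL2a, adjusted p = 1.12e-10). SRXN1 was at 193, 181 and 185 CPM in siGRHL2a, against 286, 271 and 277 CPM in siTP63b and 276, 281 and 242 CPM in siSOX2b. It was lower in siGRHL2a than in either (log2FC = 0.58 for siTP63b against siGRHL2a and -0.52 for siGRHL2a against siSOX2b, adjusted p = 1.18e-10 and 2.76e-09), and siTP63b and siSOX2b overlapped. TXN was at 566, 510 and 483 CPM in siTP63b, 388, 452 and 429 CPM in siSOX2b and 457, 399 and 342 CPM in siGRHL2a, so that only siTP63b stood apart (log2FC = 0.30 and 0.38, adjusted p = 0.00148 and 1.08e-04). Without siGRHL2a replicate 1, TXN was also lower in siGRHL2a than in siSOX2b (log2FC = -0.20, adjusted p = 0.0445). PRDX1 followed TXN in this respect (log2FC = 0.39 and 0.37). All 4 thioredoxin genes were higher in siTP63b than in siGRHL2a, where 13.6% of all genes and 21.8% of those with at least 10 CPM were.

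Of the 12 detoxification genes, 9 were higher in siTP63b than in siSOX2b (16.4% of all genes, 23.7% of those with at least 10 CPM), and none was lower (15.4% and 23.0%). NQO1 was not among them, with 282, 287 and 263 CPM in siTP63b, 261, 270 and 260 CPM in siSOX2b and 250, 261 and 250 CPM in siGRHL2a (log2FC = 0.07, adjusted p = 0.218 against siSOX2b). Against siGRHL2a the log2FC of NQO1 was 0.13 (adjusted p = 0.0288), a call that was lost without siGRHL2a replicate 1 or 3 or siTP63b replicate 1 or 2 (0.0763, 0.0660, 0.0756 and 0.0851), with no filter on low counts (0.0621) and with only the 6 libraries compared (0.108). ALDH3A1, an aldehyde dehydrogenase, was at 263, 242 and 275 CPM in siTP63b, with siGRHL2a at 277, 267 and 285 CPM, above the 193, 160 and 202 CPM of siSOX2b (log2FC = 0.50 and 0.58, adjusted p = 1.16e-06 and 1.29e-07). UGDH, which makes UDP-glucuronate for conjugation, was at 133, 134 and 124 CPM in siTP63b, above 109, 98.3 and 83.7 CPM in siSOX2b and 103, 91.7 and 108 CPM in siGRHL2a (log2FC = 0.42 and 0.37, adjusted p = 9.22e-06 and 7.24e-05). CBR3, a carbonyl reductase near the low end of the members, was at 4.90, 6.80 and 4.56 CPM in siTP63b, against 3.80, 3.07 and 4.71 CPM in siGRHL2a. CBR3-AS1 on the other strand had 140% as many counts. The groups overlapped and the call (log2FC = 0.49, adjusted p = 0.0240) was lost without siGRHL2a replicate 1 or 2 or siTP63b replicate 2 (0.0592, 0.15 and 0.213, with a log2FC of 0.30 in the last case) and with only the 6 libraries compared (0.0628). CYP4F11 was higher in siTP63b than in siSOX2b and siGRHL2a (log2FC = 0.24 and 0.33), and AKR1C1, AKR1C2, AKR1C3, AKR1B1 and EPHX1 were higher in siTP63b than in siSOX2b by 0.17 to 0.34. CBR1 was at 52.2, 59.4 and 44.8 CPM in siGRHL2a, 46.2, 42.1 and 45.2 CPM in siSOX2b and 43.1, 38.9 and 42.0 CPM in siTP63b. It was higher in siGRHL2a than in the other knockdowns (log2FC = 0.23 against siSOX2b, but 0.12 without siGRHL2a replicate 2, and -0.34 for siTP63b against siGRHL2a), although siGRHL2a and siSOX2b overlapped. SETD4 and CBR1-AS1 on the other strand had 142.1% and 108.3% as many counts as CBR1, so these genes cannot be told apart without known strand.

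PIR took the order siGRHL2a (40.5, 37.1 and 39.2 CPM), siTP63b (32.3, 38.4 and 31.6 CPM) and siSOX2b (25.0, 25.5 and 25.6 CPM). It was lowest in siSOX2b without overlap (log2FC = 0.62 for siGRHL2a against siSOX2b, adjusted p = 5.67e-08, and 0.43 for siTP63b against siSOX2b, adjusted p = 1.93e-05), whereas siTP63b and siGRHL2a overlapped and their difference (log2FC = -0.19, adjusted p = 0.0362) was lost without siTP63b replicate 1 or 3 or siGRHL2a replicate 1 or 3 (0.173, 0.201, 0.130 and 0.103). It was also lost with DESeq2 (adjusted p = 0.056), with no filter on low counts (0.0631) and with only the 6 libraries compared (0.0733). PGD, TKT and ABCC3 were higher in siTP63b and in siGRHL2a than in siSOX2b (log2FC = 0.14 to 0.42). OSGIN1 was higher in siTP63b than in siSOX2b (log2FC = 0.31, adjusted p = 0.0275, lost without siSOX2b replicate 2 or 3 or siTP63b replicate 3 at 0.0538, 0.195 and 0.190, where its lowest log2FC was 0.20). ME1 and ABCC2 were higher in siTP63b than in siGRHL2a (log2FC = 0.22 and 0.37), and TRIM16 was higher in siGRHL2a than in siSOX2b (0.20). HMOX1, FTL, ABCC1 and TALDO1 passed in no pair. Without siGRHL2a replicate 2, FTL was higher in siGRHL2a than in siSOX2b (log2FC = 0.18, adjusted p = 0.0187, and 0.0328 in all libraries with upper-quartile normalization) and lower in siTP63b than in siGRHL2a (-0.17, adjusted p = 0.0207).

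The calls differed in how well they held when 1 library was left out or another setting was used, 14 alternatives per comparison. In siKLF5b against siNC1, 16 of the 21 calls held under all of them, in siTP63b against siSOX2b 23 of 24, in siTP63b against siGRHL2a 15 of 22 and in siGRHL2a against siSOX2b 13 of 16. No call changed direction. Calls lost and not described above are given next. In siKLF5b, ABCC3 (adjusted p = 0.0226 in edgeR's test) was lost without siNC1 replicate 1 or 2 or siKLF5b replicate 1 or 2 (0.143, 0.0577, 0.0659 and 0.0627) and with no filter on low counts (0.0688). In siTP63b against siGRHL2a, ABCC2 (adjusted p = 0.034) was lost without siTP63b replicate 1 or 3 or siGRHL2a replicate 1 or 2 and with only the 6 libraries compared (0.0847 to 0.187), and its log2FC was 0.58 without siTP63b replicate 2. ABCC3 (0.0449) was lost there without siTP63b replicate 1 or siGRHL2a replicate 1 or 2 and under 3 other settings (0.0598 to 0.16), and AKR1C1 (0.0458) without siTP63b replicate 1 or siGRHL2a replicate 2 or 3 and under 2 other settings (0.0606 to 0.211). For siGRHL2a against siSOX2b, CBR1 (0.0317) was lost without siGRHL2a replicate 1 or 2 or any siSOX2b library, replicates 1 to 3, and with DESeq2 (0.0541 to 0.292). PGD (0.0395) was lost there without siGRHL2a replicate 1 or 3 or siSOX2b replicate 2 or 3 and under 4 other settings (0.0533 to 0.286), with a log2FC of 0.09 without siGRHL2a replicate 3, and TRIM16 (0.00543) without siSOX2b replicate 3 (0.0609).

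Some members that did not pass did so under an alternative. In siKLF5b against siNC1 these were PRDX1 (lowest adjusted p = 0.00965 in edgeR's test, with only the 6 libraries compared), TALDO1 (0.0167, the same setting) and AKR1C3 (0.0149, the same setting, and 0.0363 without siNC1 replicate 1). In siTP63b against siGRHL2a, HMOX1 passed with at least 10 counts in every library (log2FC = 0.80, adjusted p = 0.0458) and without siTP63b replicate 2 (1.00, 0.0409), at 22 to 38 counts in the siTP63b libraries and 16 to 26 in those of siGRHL2a. AKR1C3 passed there without siTP63b replicate 3 (0.0125), as did TRIM16 (0.0498), and GPX2 without siGRHL2a replicate 2 (0.025). For siTP63b against siSOX2b, ABCC1, TALDO1 and ME1 passed without siTP63b replicate 3 (0.024, 0.0352 and 0.019), ME1 also without siSOX2b replicate 3 (0.0253) and ABCC2 without siTP63b replicate 2 (0.0123). For siGRHL2a against siSOX2b, ABCC1 passed without siGRHL2a replicate 3 (0.0372), ME1 without siGRHL2a replicate 1 (0.0317), AKR1C2 without siSOX2b replicate 1 (0.0456) and AKR1B1 without siSOX2b replicate 3 (0.0143). With DESeq2, ABCC1 and ME1 passed in this comparison as well (0.0441 and 0.0214), ME1 in siTP63b against siSOX2b (0.0354), AKR1C3 in siTP63b against siGRHL2a (0.0277) and PRDX1 in siKLF5b against siNC1 (0.0453). Another normalization or filter also let AKR1B1, AKR1C3 and PRDX1 pass in the comparisons named for them, and ME1 in siTP63b against siSOX2b.

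Finally, to ask whether the targets follow the change of NFE2L2 RNA, each target that passed was counted as changing in the direction of NFE2L2 or in the other. In siKLF5b against siNC1, where NFE2L2 fell by 0.15 on the log2 scale, 14 of the 34 targets fell (41.2%, against 12.9% of all genes and 23.1% of those with at least 10 CPM), 3 rose (8.82%, against 10.3% and 14.5%) and 17 did not pass. Of the targets, 31 had a mean of at least 10 CPM. In siGRHL2a against siSOX2b, where NFE2L2 was higher by 0.18, 11 targets were higher (32.4%, against 12.7% and 18.0%). There 2 targets were lower, namely TXNRD1 and SRXN1 (5.88%, against 11.8% and 20.4%). Of the other core targets, SLC7A11 was higher there, and NQO1, GCLM and GCLC did not pass. In these comparisons, therefore, more of the targets that passed lay on the side of NFE2L2. The comparisons with siTP63b gave the opposite count. In siTP63b against siSOX2b, where NFE2L2 was lower by 0.24, only TXNRD1 was lower with it (2.94%, against 15.4% and 23.0%), while 20 targets were higher (58.8%, against 16.4% and 23.7%). In siTP63b against siGRHL2a, where NFE2L2 differed most (-0.42), 3 targets were lower, namely GCLC, CBR1 and PIR (8.82%, against 13.4% and 18.1%), and 17 were higher (50%, against 13.6% and 21.8%). The 17 include ABCC2 and CBR3, whose means were below 10 CPM. Of the 31 targets with at least 10 CPM, 15 were higher there. The median log2FC of the targets was -0.12 in siKLF5b against siNC1 and 0.09 in siGRHL2a against siSOX2b. It was 0.24 in siTP63b against siSOX2b and 0.13 in siTP63b against siGRHL2a, on the other side from NFE2L2.

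**Figure D4:**
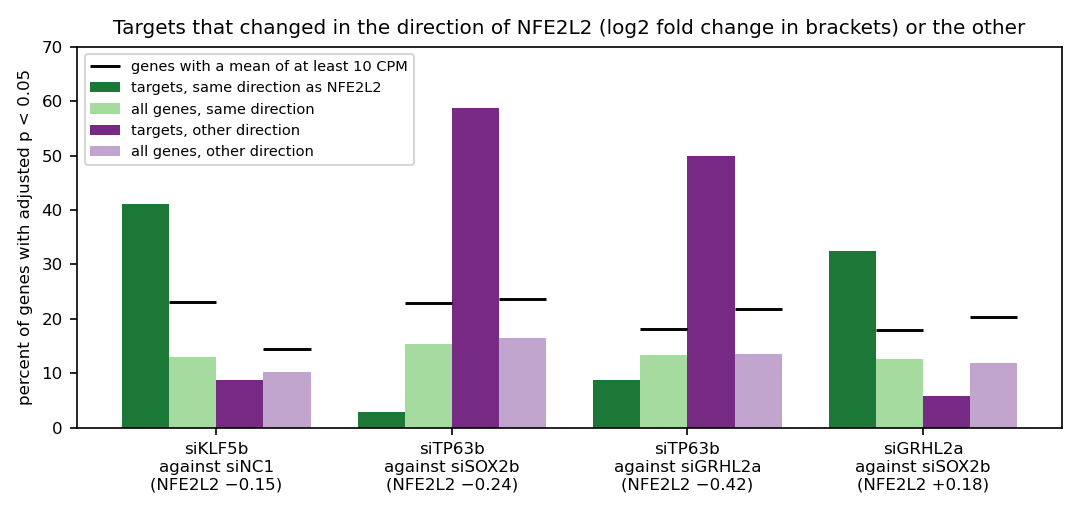
Percent of the 34 targets (dark bars) and of all 25108 genes tested (light bars) that passed in the direction of NFE2L2 (green) or in the other direction (purple), for the 4 comparisons on the x axis with the log2FC of NFE2L2 in brackets. Black lines mark the share for genes whose mean was 10 CPM or more. Targets on the side of NFE2L2 prevail in siKLF5b against siNC1 (41.2%) and siGRHL2a against siSOX2b (32.4%), and targets on the other side in both comparisons of siTP63b (58.8% and 50%).

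The reads of 16 members may belong in part to other genes. Besides AKR1C1, AKR1C2 and AKR1C3 and the genes whose overlaps are given above (NFE2L2, MAFG, SLC7A11, GPX2, SRXN1, CBR1, CBR3, FTH1 and TRIM16), these were OSGIN1, UGDH, PIR and EPHX1, where the gene with the most overlapping counts had 38.7%, 27.6%, 26.5% and 26.3% as many. The count without them was made after seeing the data. Of the other 22 members, 11 were lower in siKLF5b than in siNC1 (12.9% of all genes, 23.1% of those with at least 10 CPM), 12 were higher in siTP63b than in siSOX2b (16.4% and 23.7%), 11 were higher in siTP63b than in siGRHL2a (13.6% and 21.8%) and 6 were higher in siGRHL2a than in siSOX2b (12.7% and 18.0%). Of their 20 targets, 9 were lower with NFE2L2 in siKLF5b, although the direction was still taken from NFE2L2, itself one of the members in doubt. The count higher with it in siGRHL2a against siSOX2b was 5 of the 20, which is closer to the 18.0% of genes with at least 10 CPM than the count over all targets. In the latter comparison, the median log2FC was then 0.03, against 0.10 for all members and 0.02 for all genes.

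A list of 46 other genes of the pathway was examined beside the members. In siKLF5b against siNC1, 16 were lower (34.8%, against 12.9% of all genes and 23.1% of those with at least 10 CPM) and 5 higher (10.9%, against 10.3% and 14.5%), with a median log2FC of -0.18. The genes with the largest changes were MAFF, a small MAF protein (log2FC = -0.82), the heme transporter SLC48A1 (-0.65), SLC3A2, the chain that carries SLC7A11 to the membrane (-0.62), and the glutathione transferase GSTM2 (0.69, lost without siNC1 replicate 3 at an adjusted p of 0.0948 in edgeR's test). SLC3A2 was at 156, 148 and 141 CPM in siNC1 and at 93.2, 98.9 and 97.7 CPM in siKLF5b, so it fell while SLC7A11 did not pass. In siTP63b against siSOX2b, 15 were higher (32.6%, against 16.4% and 23.7%) and 12 lower (26.1%, against 15.4% and 23.0%), with a median log2FC of 0.02. In siTP63b against siGRHL2a, 10 were higher (21.7%, against 13.6% and 21.8%) and 14 lower (30.4%, against 13.4% and 18.1%), with a median of -0.04. In siGRHL2a against siSOX2b, 8 were higher (17.4%, against 12.7% and 18.0%) and 7 lower (15.2%, against 11.8% and 20.4%), shares near the background, with a median of 0.07 beside the 0.10 of the members. The difference between this list and the members was not tested.

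Single genes of that list differed clearly between the 3 knockdowns. SLC48A1 was at 36.6, 36.4 and 36.4 CPM in siTP63b, with siGRHL2a at 50.3, 51.6 and 60.6 CPM and siSOX2b at 65.3, 61.6 and 76.5 CPM (log2FC = -0.89 for siTP63b against siSOX2b, adjusted p = 6.25e-11). MGST1, a microsomal glutathione transferase, was highest in siTP63b at 20.7, 21.4 and 19.0 CPM. It was at 11.4, 10.4 and 10.5 CPM in siSOX2b and at 11.8, 13.8 and 12.4 CPM in siGRHL2a. Its log2FC in siTP63b was 0.92 against siSOX2b and 0.69 against siGRHL2a (adjusted p = 9.35e-10 and 2.02e-07 in edgeR's test). GCH1, which starts the synthesis of tetrahydrobiopterin, was lowest in siGRHL2a (6.15, 5.85 and 7.34 CPM, against 13.0, 11.8 and 12.2 CPM in siTP63b, log2FC = 0.93 for siTP63b against siGRHL2a and -0.51 for siGRHL2a against siSOX2b). By mean, siTP63b was thus the lowest for SLC48A1 and the highest for MGST1, and siGRHL2a was the lowest for GCH1. ADH7, an alcohol dehydrogenase of the upper airway and digestive tract, was higher in siGRHL2a than in siSOX2b (147, 141 and 116 CPM against 91.3, 87.2 and 81.2 CPM, log2FC = 0.64), as was GSTM4 (0.43), whereas MAFF was lower (-0.64). CES1 and ALDH1A1 were higher in siTP63b than in siSOX2b (log2FC = 0.95 and 1.53) and siGRHL2a (0.83 and 1.99), at levels of at most 7.38 and 0.952 CPM in any library of this set. ALDH1A1 had only 10, 0 and 8 counts in the siGRHL2a libraries and 4, 12 and 6 in those of siSOX2b, so the sizes of its differences are uncertain, and its call against siSOX2b was lost without siTP63b replicate 2 or siSOX2b replicate 1 (adjusted p = 0.096 and 0.122 in edgeR's test).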

How the data were processed

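Polyadenylated RNA was sequenced as paired-end reads. The authors aligned the reads to hg38 using HISAT2 2.2.1 and counted those with a unique alignment using featureCounts 2.0.1 and Gencode release 40. Raw counts per gene were deposited. The methods name reads as what was counted. Use of strand, and whether the mates of a pair were counted once or separately, is not given in the sources used here. The counted length of all 61544 genes was the whole span, so intronic reads were included, and the 37 mitochondrial genes had 0 counts. All 15 count columns matched a library by name. The table held no comparisons by the authors.

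The counts were fitted in edgeR 4.0.16 (R 4.3.3) with TMM, the filterByExpr filter by group and a quasi-likelihood model of all 15 libraries, with Benjamini-Hochberg adjustment. The steps were tested on simulated data. The members and lists were chosen with earlier results of these data known. Values per library are given for the 4 regulators, 6 core targets (NQO1, GCLM, GCLC, TXNRD1, SRXN1, SLC7A11) and the 8 members with the largest absolute log2FC per comparison among those that passed with a mean of at least 1 CPM in a group. Up to 4 passed genes per list and comparison with the largest absolute log2FC were named, with no minimum CPM. Replicates differed by more than sampling noise. The chi-square per gene was 2.04 to 4.34 in siNC1 and siKLF5b and 4.95 to 8.10 in siTP63b, siSOX2b and siGRHL2a. Merged exon lengths came from Gencode release 44.

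Alternatives changed the normalization (RLE or upper quartile), the filter (a minimum of 10 counts in each library, or none), the model (a replicate block, or a fit of the 6 libraries of a comparison), the tool (DESeq2 1.42.0) and the counts themselves (halved in the 9 libraries with excess even counts), and each library was left out in turn. After seeing the data, the omission of members in doubt was added. A member was in doubt when an overlapping gene had at least 20% as many counts, or when it was AKR1C1, AKR1C2 or AKR1C3.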

Additional observations from a re-analysis of the deposited data

How the results depend on the processing

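NFE2L2 kept its direction and its side of the threshold under all 14 alternatives of each comparison, with adjusted p (edgeR's quasi-likelihood test, or DESeq2 where named as the tool) of 5.71e-05 to 0.0381 in siKLF5b against siNC1, 9.48e-11 to 5.9e-04 in siTP63b against siSOX2b, 7.47e-29 to 4.61e-07 in siTP63b against siGRHL2a and 5.53e-05 to 0.0369 in siGRHL2a against siSOX2b. No result changed direction beyond the threshold, and the median of all genes stayed between -0.02 and 0.04. With each library left out in turn, siKLF5b against siNC1 gave 1 to 4 higher members and 1 to 2 lower DEGs. Likewise, siTP63b against siSOX2b gave a median log2FC of 0.1896 to 0.2556 and 1 to 2 targets lower with NFE2L2, siTP63b against siGRHL2a a median of 0.1141 to 0.1521, 1 to 2 higher DEGs and 2 to 5 targets lower with NFE2L2, and siGRHL2a against siSOX2b a median of 0.0633 to 0.1174, 0 to 1 higher DEGs and 2 to 4 lower members. In siGRHL2a against siSOX2b, the higher DEG, AKR1B10, dropped to 0 DEGs with DESeq2, RLE size factors, at least 10 counts or only the 6 libraries compared, and DESeq2 called 4 members lower. With at least 10 counts, siTP63b against siGRHL2a had 2 higher DEGs, AKR1B10 and HMOX1. In siTP63b against siSOX2b, 2 targets (TXNRD1 and GCLC) were lower with NFE2L2 under DESeq2, RLE size factors, at least 10 counts and the replicate block. That block changed no other count or median by over 1.5 times, and the replicate numbers did not pair the libraries: deviations of same-numbered libraries correlated at -0.172 to 0.093, and 0 to 4 of 6 libraries per comparison correlated best with their own number. Without the members in doubt, an alternative chosen after seeing the data, siKLF5b against siNC1 had a median log2FC of -0.1723, 11 lower members and 9 targets lower with NFE2L2. siTP63b against siSOX2b then had 12 higher and 1 lower member and 1 higher DEG, siTP63b against siGRHL2a 11 higher and 1 lower member and 1 target lower with NFE2L2, and siGRHL2a against siSOX2b a median of 0.0308, 6 higher members, 1 lower member and 5 targets higher with NFE2L2. The cause of these shifts was not tested. Some of these alternatives also hold fewer members or libraries. Halving the counts moved none of the counts or medians over members by more than the spread or 1.5 times. Depth limits HMOX1 and CBR3 most, since the former had fewer counts than any other member.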

Other observations

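ATF4, the TF of the amino acid and stress response that also drives SLC7A11, was examined with its targets in a list of 16 genes, ATF4 included. In siKLF5b against siNC1, 7 were lower (43.8%, against 12.9% of all genes) and 3 higher (18.8%, against 10.3%), with a median log2FC of -0.18. ATF4 itself was among the lower genes (log2FC = -0.17, adjusted p = 0.00794). SLC7A5, a carrier of large amino acids, was at 495, 457 and 453 CPM in siNC1 and at 251, 252 and 282 CPM in siKLF5b (log2FC = -0.84, adjusted p = 8.48e-13). CHAC1, which degrades glutathione, was lower as well, at 0.965 to 1.60 CPM and 0.445 to 0.740 CPM (log2FC = -1.12, adjusted p = 0.0294 in edgeR's test, lost without siNC1 replicate 1 or siKLF5b replicate 1 or 3 at 0.178, 0.117 and 0.0946), as were CEBPB (-0.63) and VLDLR (-0.45). SLC7A11 did not pass in that comparison. In siTP63b against siSOX2b, 7 of the 16 were lower (43.8%, against 15.4% of all genes) and 3 higher (18.8%, against 16.4%), whereas SLC7A11 was higher by 1.04. ATF3, a stress-induced TF, was at 8.16, 8.29 and 7.55 CPM in siTP63b and at 17.1, 16.0 and 15.4 CPM in siSOX2b (log2FC = -1.01), and DDIT3 was lower too (-0.67), while CEBPB (1.02) and TRIB3 (0.86) were higher. In siTP63b against siGRHL2a, 7 were higher (43.8%, against 13.6%) and 3 lower (18.8%, against 13.4%), led by CHAC1 (0.99), TRIB3 (0.98), PSAT1 (0.69) and STC2 (0.57). In siGRHL2a against siSOX2b, 9 were lower (56.2%, against 11.8%) and 1 higher (6.25%, against 12.7%), led by CHAC1 (-1.03), SESN2 (-0.66), STC2 (-0.56) and, higher, CEBPB (0.67). CHAC1, with at most 51 counts in a library, lost its call in siTP63b against siGRHL2a without siTP63b replicate 3 or siGRHL2a replicate 1 and with only the 6 libraries compared (0.121, 0.118 and 0.0536), and that of siGRHL2a against siSOX2b without siSOX2b replicate 3 or siGRHL2a replicate 1 (0.0804 and 0.105). Of genes with a mean of at least 10 CPM, the lower and higher shares were 23.1% and 14.5%, 23.0% and 23.7%, 18.1% and 21.8%, and 20.4% and 18.0% in these 4 comparisons.

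A list of 9 genes around AHR, the receptor for aromatic hydrocarbons, holds NFE2L2, NQO1 and ALDH3A1 as shared members, and 8 of the 9 were tested. CYP1B1, a monooxygenase that AHR induces, was at 426, 449 and 422 CPM in siTP63b, with siGRHL2a at 281, 241 and 236 CPM and siSOX2b at 197, 171 and 191 CPM. These groups did not overlap, and the log2FC was 1.21 for siTP63b against siSOX2b (adjusted p = 7.68e-17) and 0.78 for siTP63b against siGRHL2a (adjusted p = 2.50e-12). CYP1A1 was higher in siTP63b as well (1.63, 2.04 and 1.78 CPM, log2FC = 2.15 and 2.25), with at most 0.978 CPM in the libraries of siSOX2b and siGRHL2a. Its counts were 32, 0 and 4 in siSOX2b, so that the log2FC against siSOX2b was 4.56 without siSOX2b replicate 1 and 1.5 without siSOX2b replicate 2. TIPARP, another gene induced by AHR, took the opposite order, with 136, 135 and 127 CPM in siTP63b and 217, 212 and 210 CPM in siSOX2b (log2FC = -0.68). AHRR, the repressor of the receptor, was lower in siTP63b than in siGRHL2a (log2FC = -0.50). In siKLF5b against siNC1, CYP1A1 (0.72, lost with DESeq2 and without any 1 of the 6 libraries, siNC1 or siKLF5b replicates 1 to 3, at an adjusted p of 0.0642 to 0.5) and CYP1B1 (0.28) were higher and AHR (-0.20) and TIPARP (-0.20) lower. The list gave 2 higher and 4 lower genes there (10.3% and 12.9% of all genes), 4 and 2 in siTP63b against siSOX2b (16.4% and 15.4%), 3 and 3 in siTP63b against siGRHL2a (13.6% and 13.4%), and 5 and 1 in siGRHL2a against siSOX2b (12.7% and 11.8%). In the last of these, CYP1B1 (0.44), AHRR (0.31) and ALDH3A1 (0.58) were among the higher genes and TIPARP (-0.47) was the lower. The call of AHRR (adjusted p = 0.0302 in edgeR's test) was lost without siSOX2b replicate 2 or 3 or siGRHL2a replicate 1 or 3 (0.0659 to 0.154), with only the 6 libraries compared (0.0609), with no filter on low counts (0.0738) and with DESeq2 (0.0657).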
